A study of Mus musculus with 6 samples.

Results

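Platelet and megakaryocyte genes were examined in whole mouse lung. The set holds 9 genes, chosen by name: Pf4, Ppbp, Gp1bb, Gp5, Gp9, Gp6, Treml1, Clec1b and Tubb1. For each, the probe set with that gene symbol and the highest mean over the 6 arrays was taken. 7 of the 9 had a probe set, 1 each, among 17011 genes with a symbol and a tested probe set. Gp1bb and Gp6 were matched to no symbol in the table and were not analysed here.

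The lungs came from C57BL/6 mice, 8 weeks old, that had all been injected intraperitoneally every day for 7 days with 100 uL of medium. Control mice (replicates 2 and 4) had plain RPMI culture medium, PC3 mice (replicates 4 and 5) had medium conditioned by the human prostate cancer line PC3, and LN4 mice (replicates 1 and 3) had medium conditioned by PC3M-LN4, a metastatic derivative of it. Each of the 3 groups held 2 mice with 1 array per lung. The tumour cells are human and only their medium reached the mice, and whole lung pieces were extracted, so platelets, megakaryocytes and all other lung and blood cells were measured together.

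Megakaryocytes are the large polyploid cells that shed platelets, and in the mouse many of them release platelets while lodged in the lung vessels. Platelets carry little RNA, inherited from the megakaryocyte, which is rich in transcripts for granule proteins, adhesion receptors and cytoskeleton. The chemokines Pf4 and Ppbp are stored in alpha granules and released on activation. Gp1bb, Gp5 and Gp9 encode parts of the glycoprotein Ib-IX-V complex, the receptor for von Willebrand factor, and Gp6 encodes the collagen receptor. Treml1 encodes a receptor of the alpha granule membrane, Clec1b the receptor for podoplanin, and Tubb1 the beta-1 tubulin that forms the marginal band of the platelet.

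Pf4 and Ppbp lie next to each other among the protein-coding genes of chromosome 5 in GRCm38.p6. Their promoter windows are shown because these 2 genes had the largest differences of the set in the comparisons with PC3 lungs. The windows run from 250 bases before to 50 after the annotated start, are credited to RefSeq (GRCm38.p6), and lie on the plus strand at chr5:90772185-90772484 for Pf4 and chr5:90768268-90768567 for Ppbp. Capitals mark GATAA, the core bound by a family of zinc finger factors of blood cells. They also mark TATAAA, the box near the start of some genes. Both strands were searched.
Pf4: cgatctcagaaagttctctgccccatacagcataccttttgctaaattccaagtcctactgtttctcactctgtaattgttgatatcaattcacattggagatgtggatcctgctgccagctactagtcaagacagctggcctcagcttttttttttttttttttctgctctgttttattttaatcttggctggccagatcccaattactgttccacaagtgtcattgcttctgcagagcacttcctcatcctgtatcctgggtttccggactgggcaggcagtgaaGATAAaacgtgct
Ppbp: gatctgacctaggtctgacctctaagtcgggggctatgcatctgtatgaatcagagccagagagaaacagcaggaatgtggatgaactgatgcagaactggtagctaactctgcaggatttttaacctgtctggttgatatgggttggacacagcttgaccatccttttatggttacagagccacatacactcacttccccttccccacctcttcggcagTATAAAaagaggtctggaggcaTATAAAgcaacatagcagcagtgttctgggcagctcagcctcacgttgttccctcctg

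The Pf4 window held 1 GATAA and no TATAAA, and the Ppbp window held 2 TATAAA and no GATAA. Windows of all 9 genes were found. GATAA stood in 5 of them (Pf4, Gp5, Gp9, Gp6 and Clec1b), against 25.3% of all 32544 RefSeq promoter windows of 300 bases. The Clec1b window held 4 copies, while 0.903% of all windows held at least 3. TATAAA stood in 2 of the 9, Ppbp and Clec1b, against 13.6% of all windows. GGAA, the core of ETS factor sites and so short that 96.0% of all windows hold it on either strand, stood in all 9. No 2 of these matches overlapped. A match describes the letters only.

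The arrays differed within each group. By the authors' chip report, the percentage of exon probe sets called present was 35.4% to 39.8% in 1 array of every group (Control replicate 2, PC3 replicate 4, LN4 replicate 1) and 46.1% to 50.9% in the other. These are called the lower-detection and higher-detection arrays. LN4 replicate 3 and, less so, PC3 replicate 4 held transcripts of squamous epithelium, whose 8 markers had a mean level of 11.84 and 7.58, against 4.84 to 5.16 in the other 4 lungs. The 10 skeletal muscle markers had a mean of 9.86 in LN4 replicate 3 and 5.66 to 5.86 elsewhere. Levels are given on the log2 scale of RMA, where 1 unit stands for a factor of 2. The surfactant gene Sftpc, a marker of lung epithelium, lay between 13.86 and 14.04 in all 6 lungs. The 12 lung epithelium markers together had a mean level of 11.24 in LN4 replicate 3 and 11.66 to 11.82 in the other 5, and 11 of 12 were lower in LN4 than in Control lungs (median -0.33).

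The platelet genes were dim in whole lung. Ppbp was above the 95th percentile of the negative control probe sets, which lay between 7.37 and 7.69, on all 6 arrays. Tubb1 was above it on 4 arrays, and Pf4, Gp5, Gp9, Treml1 and Clec1b on 0. By their means over the arrays, Pf4 exceeded 92.9% of the negative controls, Treml1 92.3%, Gp5 88.2%, Gp9 87.3% and Clec1b 78.7%. All 7 passed the filter that left out the dimmest 25% of probe sets. In such tissue, fewer platelets or megakaryocytes and less RNA in each of them cannot be told apart.

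**Figure D1:**
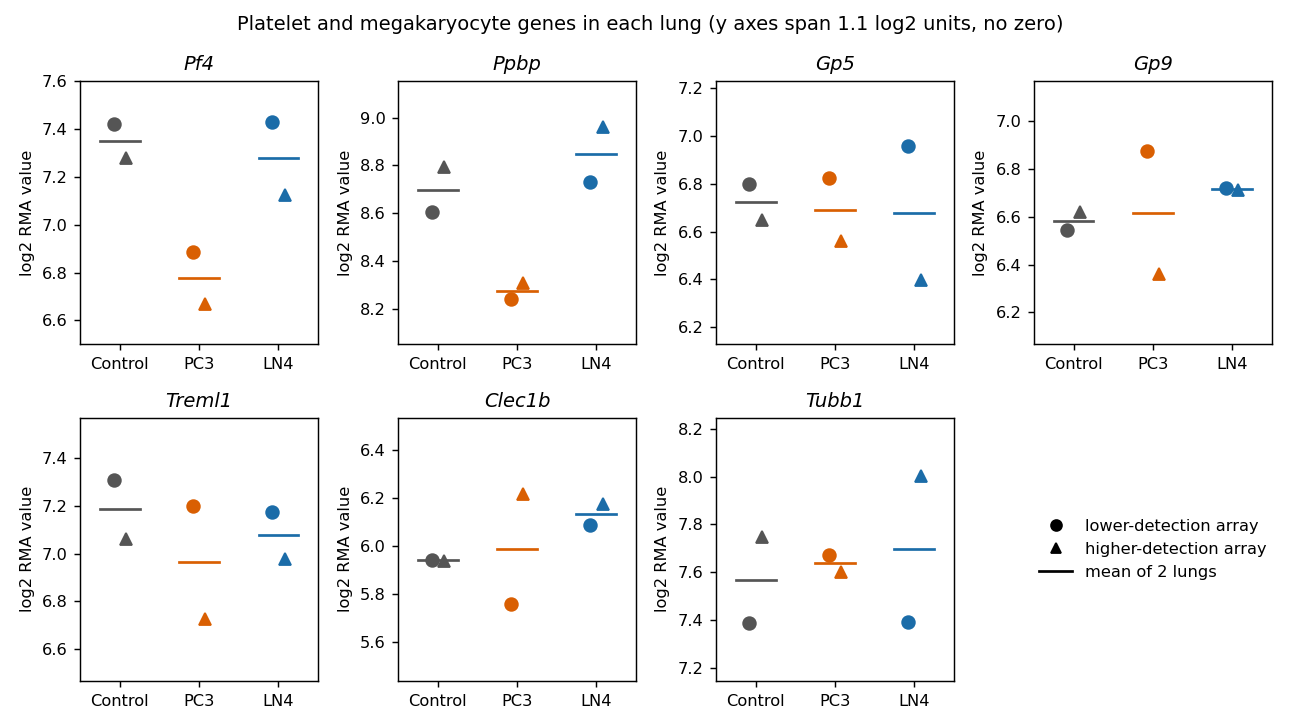
Level of each measured gene (y axis, log2 RMA value, 1.1 units tall in every panel) in the 2 lungs of each group (x axis), with lower-detection arrays as circles, higher-detection arrays as triangles and the mean of 2 lungs as a line. Both PC3 lungs lie below the other 4 lungs for Pf4 and for Ppbp, while the groups overlap in most other panels.

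Pf4, platelet factor 4 or Cxcl4, a heparin-binding chemokine, was at 7.42 and 7.28 in the Control lungs, 6.89 and 6.67 in the PC3 lungs, and 7.43 and 7.12 in the LN4 lungs. Both PC3 lungs were below all 4 others, and the Control and LN4 lungs overlapped. The group means were 7.35 ± 0.10, 6.78 ± 0.15 and 7.28 ± 0.22 (SD, n = 2).

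Ppbp, pro-platelet basic protein or Cxcl7, the precursor of a chemokine that attracts neutrophils, was at 8.60 and 8.79 in Control, 8.24 and 8.31 in PC3, and 8.73 and 8.96 in LN4 lungs. The 2 PC3 lungs were again the lowest of the 6, and the Control and LN4 lungs overlapped. The group means were 8.70 ± 0.13, 8.28 ± 0.05 and 8.85 ± 0.16 (SD, n = 2).

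Of the glycoprotein Ib-IX-V genes, Gp5 was at 6.80 and 6.65 in Control, 6.82 and 6.56 in PC3, and 6.96 and 6.40 in LN4 lungs. All 3 groups overlapped, and the lower-detection lung was the higher one in each. Gp9 was at 6.55 and 6.62 in Control, 6.87 and 6.36 in PC3, and 6.72 and 6.71 in LN4 lungs. The 2 LN4 lungs were above the 2 Control lungs by little, and the PC3 lungs spanned all the others.

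Treml1 was at 7.31 and 7.06 in Control, 7.20 and 6.73 in PC3, and 7.18 and 6.98 in LN4 lungs. The groups overlapped, with the lowest value in PC3 replicate 5 and the lower-detection lung higher in each group. Clec1b was at 5.94 and 5.94 in Control, 5.76 and 6.22 in PC3, and 6.09 and 6.18 in LN4 lungs. Its PC3 lungs held both the lowest and the highest value. Tubb1 was at 7.39 and 7.75 in Control, 7.67 and 7.60 in PC3, and 7.39 and 8.00 in LN4 lungs, with all groups overlapping and the highest value in LN4 replicate 3.

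PC3 lungs were first set against Control lungs, which addresses the response to medium of the parental line. Pf4 and Ppbp had lower means in PC3 than in Control lungs, by -0.57 (SE 0.20, 1.49-fold) and -0.42 (SE 0.18, 1.34-fold). The 95% intervals of these differences ran from -1.04 to -0.10 for Pf4 and from -0.86 to 0.02 for Ppbp. Neither passed limma with p-values adjusted by Benjamini-Hochberg across the 21330 tested probe sets (adjusted p = 1 for both, unadjusted p = 0.0236 and 0.0566), in which 0% of all tested probe sets passed. The remaining genes differed by -0.22 (Treml1), -0.03 (Gp5), 0.03 (Gp9), 0.05 (Clec1b) and 0.07 (Tubb1), each with an SE between 0.21 and 0.25.

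Of the 7 genes 4 were lower and 3 higher in PC3 lungs, with a median change of -0.03. Of all tested probe sets 46.6% were lower, with a median of 0.02. Pf4 was the 1 gene of the 7 with an unadjusted p under 0.05 as lower, where 1.71% of all tested probe sets had one, and none had it as higher, where 0.525% did. Both PC3 arrays lay below both Control arrays for 2 of the 7, against 15.3% of all tested probe sets, and above them for 0 of 7, against 16.4%.

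The differences of the 2 chemokines had the same sign in both kinds of array, as any pairing must give where the arrays do not overlap. Between the lower-detection lungs they were -0.53 for Pf4 and -0.36 for Ppbp, and between the higher-detection lungs -0.61 and -0.48. For Gp9, Clec1b and Tubb1 the 2 pairs had opposite signs, with Gp9 at 0.33 and -0.26, Clec1b at -0.18 and 0.28, and Tubb1 at 0.28 and -0.14.

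Markers of other blood cells were also compared between PC3 and Control lungs, and none passed after adjustment in limma. All 10 of 10 B cell markers had lower means in PC3 lungs, with a median change of -0.40, and their mean level was 6.36 to 6.49 in PC3 and 6.65 to 6.92 in Control lungs. T and NK cell markers were lower in 8 of 12, with a median of -0.18 and a mean level of 5.87 to 6.13 against 6.19 to 6.21. Erythroid genes, the marker of blood left in the tissue, were lower in 10 of 17 with a median of -0.09, and their mean level of 7.27 to 7.38 in PC3 lungs overlapped that of 7.32 to 7.35 in Control lungs. The alpha globin gene Hba-a1 was at 13.80 and 13.74 in PC3 lungs and 13.87 and 13.97 in Control lungs, and Hbb-bt, a beta globin gene, at 13.88 and 13.96 against 13.99 and 14.03. Neutrophil markers were lower in 7 of 13 and higher in 6 in PC3 lungs, with a median of -0.12 and a mean level of 6.40 to 6.42 against 6.45 to 6.78. Of the 13, 3 had an unadjusted p under 0.05 as lower in limma, against 1.71% of all tested probe sets. These 3, named after their values were seen, were S100a8 at -1.27, S100a9 at -1.28 and Retnlg at -0.66, each with both PC3 arrays below both Control arrays and an adjusted p of 1 in limma. Both PC3 arrays lay below both Control arrays for 4 of 13, these 3 and Mmp9 at -0.30, against 15.3% of all tested probe sets. In the other direction, 2 of 13 had both PC3 arrays above both Control arrays, Ltf at 0.725 and Trem1 at 0.322, against 16.4%. The part of lymphocytes, neutrophils or blood content in the Pf4 and Ppbp differences was not tested.

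**Figure D2:**
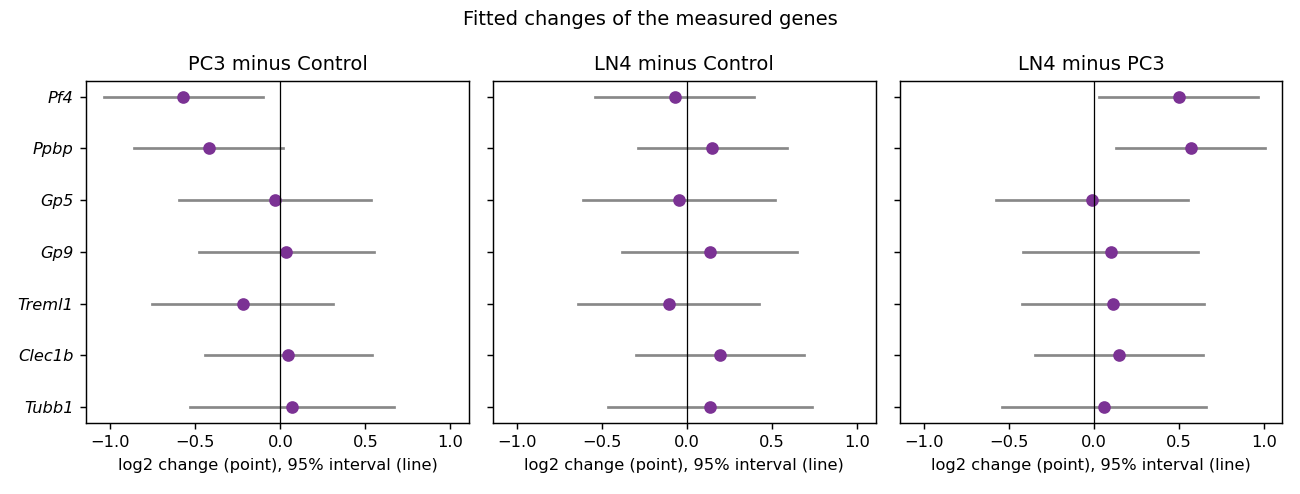
Fitted log2 change of each gene (points, x axis) with its 95% interval (lines) in the 3 comparisons, from the limma fit of all 6 arrays. The interval leaves out 0 for Pf4 in PC3 minus Control and for Pf4 and Ppbp in LN4 minus PC3, and holds 0 elsewhere.

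LN4 lungs were then set against Control lungs, which addresses the response to medium of the metastatic derivative. Pf4 differed from Control by -0.07 (SE 0.20, 95% interval -0.54 to 0.40) and Ppbp by 0.15 (SE 0.18, -0.29 to 0.59). Both differences were smaller than their SE. The other genes differed by -0.11 (Treml1), -0.05 (Gp5), 0.13 (Gp9), 0.13 (Tubb1) and 0.19 (Clec1b), and none of the 7 passed in limma (adjusted p = 1 for all 7), where 0% of all tested probe sets passed. Their intervals reached from -0.64 at the lowest to 0.73 at the highest and so hold changes of that size.

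Of the 7 genes 4 were higher and 3 lower in LN4 lungs, with a median change of 0.13, beside a median of -0.02 over all tested probe sets, of which 53.1% were lower. None of the 7 had an unadjusted p under 0.05, where 1.2% of all tested probe sets had one as lower and 0.849% as higher. Both LN4 arrays lay above both Control arrays for Gp9 and Clec1b, 2 of 7, against 12% of all tested probe sets, and below them for 0 of 7, against 16.9%. Between the lower-detection lungs Gp5 differed by 0.16 and between the higher-detection lungs, where the LN4 lung held squamous and muscle transcripts, by -0.25. Tubb1 differed by 0.005 and 0.26 in the same order.

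The third comparison set the LN4 lungs against the PC3 lungs. It uses the same PC3 arrays as the first, so it is no independent view of their low Pf4 and Ppbp. Pf4 had a higher mean in LN4 lungs by 0.50 (SE 0.20, 1.41-fold, 95% interval 0.03 to 0.97) and Ppbp by 0.57 (SE 0.18, 1.48-fold, 0.13 to 1.01). Neither passed the limma fit (adjusted p = 0.842 for both, unadjusted p = 0.0399 for Pf4 and 0.0179 for Ppbp), where 0% of all tested probe sets passed. The other genes differed by between -0.01 (Gp5) and 0.15 (Clec1b), all within their SE of 0.21 to 0.25.

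In this comparison 6 of 7 genes were higher in LN4 lungs, with a median change of 0.11, beside a median of -0.01 over all tested probe sets. Pf4 and Ppbp had an unadjusted p under 0.05 as higher, 2 of 7 against 2.2% of all tested probe sets, and none had it as lower, against 2.93%. The arrays did not overlap for the same 2 genes, against 11.4% of all tested probe sets as higher and 18.1% as lower, where the 7 had 0. Between the lower-detection lungs Pf4 differed by 0.54 and Ppbp by 0.49, and between the higher-detection lungs by 0.45 and 0.65. B cell markers were lower in LN4 than in PC3 lungs in 10 of 10, with a median of -0.29 and a mean level of 6.06 to 6.25 against 6.36 to 6.49, so here they and the 2 chemokines had opposite signs. Erythroid genes were higher in 13 of 17, with a median of 0.06 and a mean level of 7.38 to 7.44 against 7.27 to 7.38. Neutrophil markers were higher in 8 of 13 and lower in 5, with a median of 0.13 and a mean level of 6.62 to 6.86 against 6.40 to 6.42. Of the 13, 3 had an unadjusted p under 0.05 as higher in limma and 0 as lower, against the 2.2% and 2.93% above. These 3, named after their values were seen, were S100a8 at 1.14, S100a9 at 1.24 and Cxcr2 at 1.03 (limma adjusted p = 0.842 for each). The arrays did not overlap for 4 of 13 as higher and 0 as lower, against 11.4% and 18.1%. The part of neutrophils in the chemokine differences was not tested.

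**Figure D3:**
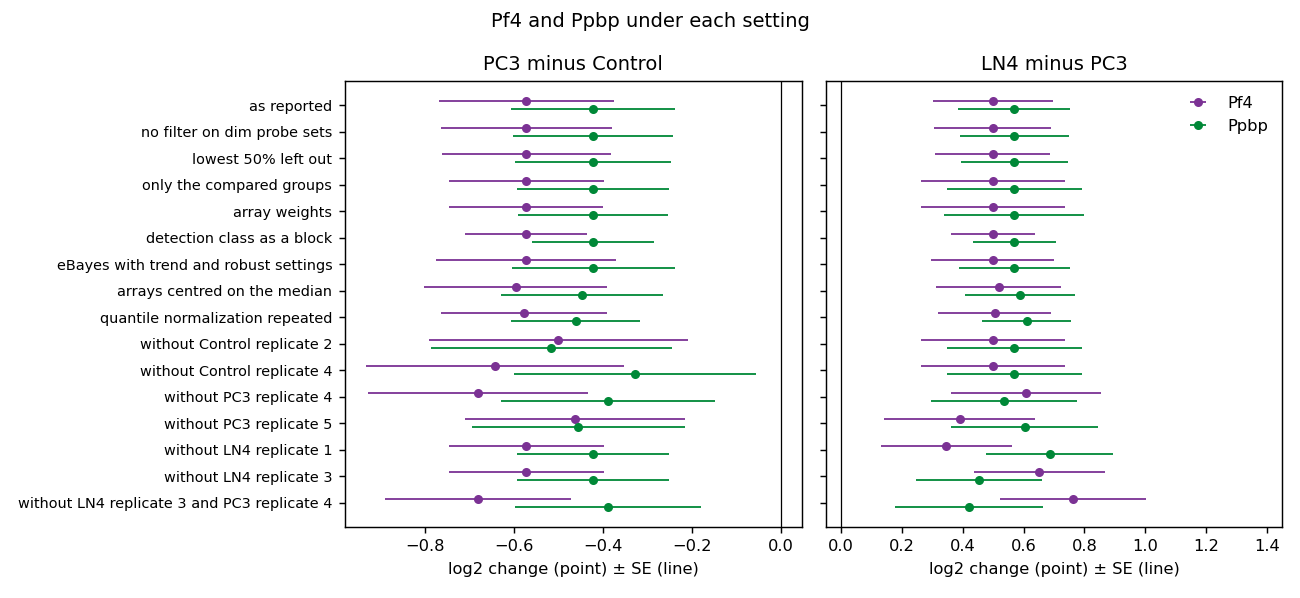
Log2 change of Pf4 and Ppbp (points) with its SE (lines) in PC3 minus Control and LN4 minus PC3 under each setting of the fit, named on the y axis. The value table and the mean of probe sets, equal to the reported values, are not drawn. Every point keeps the sign of the reported value, from -0.68 to -0.33 on the left and from 0.35 to 0.76 on the right. Leaving arrays out cannot change the sign, since the arrays of these groups do not overlap.

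The arrays with squamous transcripts bear on these values. Without LN4 replicate 3 and PC3 replicate 4 together, Pf4 differed by -0.68 in PC3 minus Control (limma adjusted p = 0.0593) and by 0.76 in LN4 minus PC3 (adjusted p = 0.0263), and Ppbp by -0.39 (adjusted p = 0.369) and 0.42 (adjusted p = 0.244). That fit rests on 4 arrays, with 1 lung each in the PC3 and LN4 groups. Its spread comes from the 2 Control lungs and the prior alone, so its p-values say nothing of the spread among PC3 or LN4 lungs. It called 514 and 2593 of all tested probe sets in the 2 comparisons.

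The genes did not follow a single pattern over the 6 lungs. Over the 21 pairs of the 7 genes, Pearson's r across the 6 arrays, given as a description, ran from -0.83 (Gp5 and Tubb1) to 0.72 (Pf4 and Treml1), and 8 pairs were negative. Pf4 and Ppbp had an r of 0.67. The arrays share the processing and the detection classes, and Gp5, Treml1 and Pf4 were higher in the lower-detection lung of every group. The mean level of the 7 genes was 7.14 and 7.16 in Control, 7.07 and 6.92 in PC3, and 7.21 and 7.19 in LN4 lungs, lowest in both PC3 lungs.

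The genes whose pattern was most like that mean were sought among 12026 probe sets with a symbol and a range of at least 0.5 over the 6 arrays. The highest Pearson's r, over 6 arrays, was found for Defa35 (0.98), Ccdc110 (0.97), Tnfrsf23 (0.97), Defa37 (0.96), Mrps12 (0.96), Sf3b4 (0.96), Fbl (0.96) and Rpl13a (0.96). Defa35, Ccdc110, Tnfrsf23 and Defa37 lay between 4.34 and 5.95 in all 6 lungs, far under the negative control percentile. Sf3b4, between 6.34 and 7.23, was also under it. Rpl13a, a ribosomal protein gene, was at 12.40 and 12.40 in Control, 12.25 and 12.06 in PC3, and 12.65 and 12.50 in LN4 lungs. Fbl, fibrillarin of the nucleolus, was at 7.87 and 7.35 in PC3 lungs and 7.91 or higher in the other 4. With 1 array left out the lowest r of the 8 fell between 0.83 and 0.95. The 8 were picked for their r over these same arrays, so these values are no test of a shared pattern.

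The nearest protein-coding neighbours of Pf4 and Ppbp on chromosome 5 are other CXC chemokine genes, while Rassf6, Albfm1 and Afm lie beyond Cxcl5. Cxcl5, beside Ppbp, differed by -0.11 between PC3 and Control lungs, whose arrays overlapped, and lay at 4.66 or below in all 6 lungs, under the negative control percentile. Cxcl3, beside Pf4, was at 4.40 and 4.05 in Control and 4.54 and 4.12 in PC3 lungs, also under that percentile. In these 4 lungs both Cxcl5 and Cxcl3 lay under even the negative control median of 4.625 to 4.953, unlike Pf4. A fall from so low a level could hardly be seen. Cxcl15, lungkine of the airway epithelium, was at 12.12 and 12.43 in Control, 11.90 and 12.47 in PC3, and 11.79 and 11.55 in LN4 lungs. Its PC3 lungs overlapped Control, and its LN4 lungs were the lowest.

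A wider view came from 66 other genes of platelets and megakaryocytes in 4 lists, of which 65 were tested. None passed in any comparison in the limma fit, and at an unadjusted p under 0.05 there was 1, lower, in PC3 minus Control, with 1 higher and 2 lower in LN4 minus Control and 2 higher and 3 lower in LN4 minus PC3. Over all tested probe sets the shares were 1.71% lower in the first, 0.849% higher and 1.2% lower in the second, and 2.2% higher and 2.93% lower in the third, so that these counts lay near the background. In LN4 minus Control the arrays did not overlap for 21 of 65 as lower, against 16.9% of all tested probe sets, and 4 as higher, against 12%. In LN4 minus PC3 these were 21, against 18.1%, and 5, against 11.4%. In PC3 minus Control they were 10, against 15.3%, and 8, against 16.4%. Among 16 other surface receptors 8 were lower and 8 higher in PC3 than in Control lungs, with a median change of 0.02. Gp1ba, the subunit of the Ib-IX-V complex that holds the von Willebrand factor site, was at 4.63 and 4.39 in PC3 and 5.12 and 4.68 in Control lungs, a difference of -0.39 (SE 0.22), far under the negative control percentile. The integrin subunit Itgb3, also made by other lung cells, differed by 0.24 (SE 0.19) and the tetraspanin Cd9 by 0.24 (SE 0.18).

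In LN4 minus Control the surface receptors had 8 of 16 lower and a median of -0.01. Fcer1g, the signalling chain that pairs with the collagen receptor and is shared with myeloid cells, was at 8.85 and 8.89 in LN4 and 9.13 and 9.50 in Control lungs. The thromboxane receptor Tbxa2r differed by -0.40 (SE 0.18). P2ry1, an ADP receptor, was at 6.80 and 8.17 in LN4 lungs and 6.30 and 6.70 in Control lungs, a difference of 0.99 (SE 0.44). It was 0.51 between the lower-detection lungs. Between the higher-detection lungs, with LN4 replicate 3, the lung with squamous and muscle transcripts, it was 1.47.

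Granule cargo and eicosanoid enzymes gave 17 tested genes. In PC3 minus Control 11 were higher and 6 lower, with a median of 0.08, led by Ptgs1, cyclooxygenase 1, at 9.07 and 9.10 in PC3 and 8.80 and 8.73 in Control lungs. In LN4 minus Control 11 were lower, with a median of -0.12, and in LN4 minus PC3 14 were lower, with a median of -0.18. Thbs1, thrombospondin-1 of alpha granules and of many other cells, was at 9.21 and 8.98 in LN4, 9.58 and 9.95 in PC3, and 9.50 and 9.88 in Control lungs. Thbs1 was thus lowest in the LN4 lungs, whereas Pf4 and Ppbp were lowest in the PC3 lungs. Tbxas1, thromboxane synthase, was at 5.87 and 6.35 in LN4 and 6.53 and 6.47 in Control lungs, and Egf at 5.63 and 6.02 against 5.21 and 4.92. Vwf, von Willebrand factor of megakaryocytes and endothelium, had overlapping values, between 10.39 and 10.99 in all 6 lungs.

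Megakaryocyte transcription factors were lower in 8 of 10 in PC3 lungs (median -0.06) and in 10 of 10 in LN4 lungs (median -0.09) against Control. The sizes were small: the 3 of smallest p in PC3 minus Control were Mafg at -0.29 (SE 0.19), Runx1 at 0.22 (SE 0.22) and Zfpm1 at -0.23 (SE 0.24). Gata1 lay between 4.62 and 5.13 in all 6 lungs, under the negative control percentile, and Nfe2 between 5.65 and 6.17, also under it (both, like Vwf, were picked after their values were seen). In LN4 minus PC3 5 were higher and 5 lower, with a median of 0.02.

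Signalling and cytoskeleton genes gave 22 tested members, with 12 lower and a median of -0.02 in PC3 minus Control. Gng11, a G protein gamma subunit abundant in platelets and also found in endothelium, was at 6.95 and 7.48 in PC3 and 8.09 and 7.72 in Control lungs, a difference of -0.69 (SE 0.26, unadjusted p = 0.0359). It and Pf4 were the members of the 5 platelet lists with an unadjusted p under 0.05 in this comparison. In LN4 minus Control 17 of 22 were lower, with a median of -0.23, including Syk at -0.47 (SE 0.18) and Rasgrp2 at -0.35 (SE 0.18), both shared with other leukocytes. In LN4 minus PC3 15 of 22 were lower, with a median of -0.17, among them Flna at -0.53 (SE 0.19) and Plek at -0.43 (SE 0.18). Markers of monocytes and macrophages were lower in 11 of 12 in LN4 minus Control (median -0.23, mean level 8.07 to 8.19 against 8.29 to 8.53) and endothelial markers in 14 of 14 (median -0.28, 9.55 to 9.82 against 9.92 to 10.02). B cell markers were lower in 10 of 10 (median -0.63, 6.06 to 6.25 against 6.65 to 6.92). In limma 9 of the 10 had an unadjusted p under 0.05 as lower, against 1.2% of all tested probe sets, and none passed after adjustment. T and NK cell markers were lower in 10 of 12 (median -0.25, 5.82 to 6.08 against 6.19 to 6.21). The part of all these cells in the list medians was not tested.

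**Figure D4:**
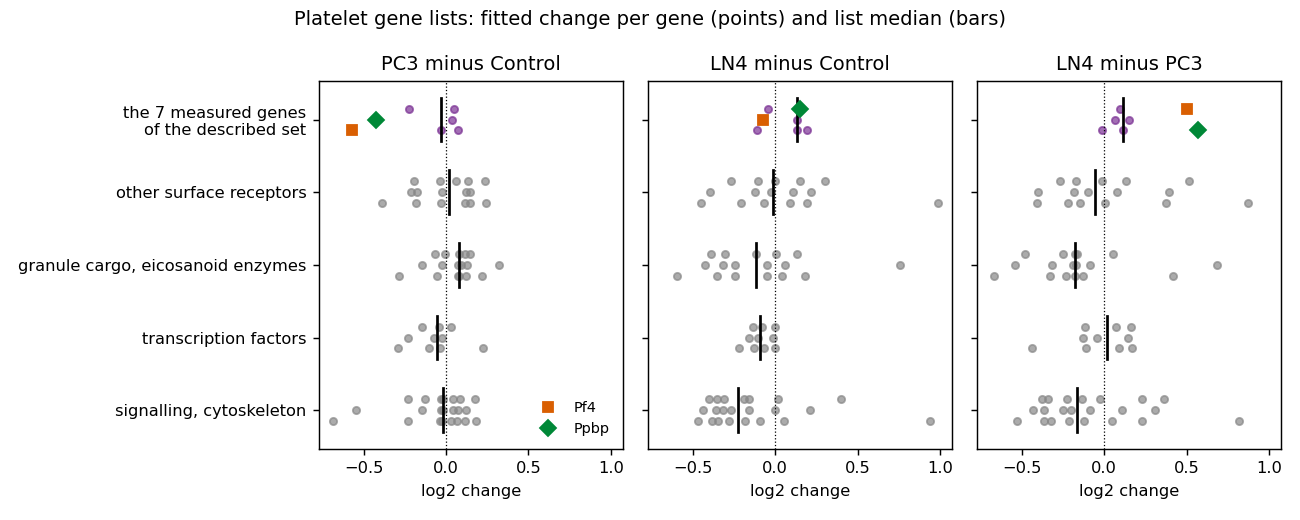
Fitted log2 change (x axis) of every tested gene (points) in the 7 measured genes and the 4 other platelet lists (rows), with the median of each list as a bar, in the 3 comparisons. Pf4 (square) and Ppbp (diamond) lie at -0.57 and -0.42 in PC3 minus Control and at 0.50 and 0.57 in LN4 minus PC3, while the list medians lie between -0.23 and 0.13.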

How the data were processed

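Log2 values were deposited, made with RMA (background correction, equalised distributions and probe summary per transcript cluster), per the submitters' processing notes and the file headers. No version of the software is stated in the labels or headers read. The value table and the gene table were equal. A percent column in the deposited chip report gives the exon probe sets called present, and its intensity column the mean raw brightness of perfect match probes, per the file headers (289.6 to 521.7). Arrays have no read depth, so their number limits the precision.

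Of 35556 probe sets 7116 controls were left out, then the dimmest 25% by mean, which left 21330. Symbols were updated through RefSeq names for the other lists. Limma 3.58.1 in R 4.3.3 fitted 3 group means to all 6 arrays (residual degrees of freedom 3, prior 3.885), two-sided, adjusted by Benjamini-Hochberg at 0.05. The script was tested on simulated data.

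The genes and lists were chosen with earlier results of these data known. All 9 genes are named, with genes of smallest p per other list and the 8 most alike patterns, from which the text gives some. Alternatives were other filters, the compared groups alone, array weights, detection class as a block, other eBayes settings, scalings, the value table, the mean of probe sets, and arrays left out. Figures used Python 3.11.15 with matplotlib 3.10.9. The result of 1 gene of the other lists is not reported here.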

Additional observations from a re-analysis of the deposited data

How the results depend on the processing

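No paired analysis was possible because the groups compared share fewer than 2 replicate numbers. A block on detection class, which is no pairing from the labels, was fitted. Each group holds 1 array of each class, so the block changes the SE but cannot change the group differences. PC3 minus Control is thus -0.57 for Pf4 and -0.42 for Ppbp by construction (limma adjusted p = 0.956 for both). Pf4 and Ppbp kept their sign in PC3 minus Control and in LN4 minus PC3 under all 17 alternatives, which for most was fixed in advance. Filters, compared groups alone, array weights, the block, eBayes settings and the value table leave these group differences unchanged. Leaving arrays out cannot change the sign, since the arrays of these groups do not overlap for the 2 genes. Only the scalings could have changed it. With 2 lungs in each compared group, neither gene passed in limma under any setting. Without LN4 replicate 3 and PC3 replicate 4, Pf4 differed by 0.76 in LN4 minus PC3. There 1 LN4 lung is set against 1 PC3 lung, and the Control lungs and the prior alone give the spread. The mean of probe sets equals the reported value by construction, since each gene has 1. The median change of the 7 genes was less stable. With the dimmest 50% left out, which drops Clec1b, it was -0.13 in PC3 minus Control and 0.043 in LN4 minus Control. With 1 array left out it ran from -0.22 (without PC3 replicate 4) to 0.014 (without PC3 replicate 5) in PC3 minus Control, from 0.029 (without Control replicate 2) to 0.17 in LN4 minus Control, and from 0.028 (without PC3 replicate 5) to 0.35 (without PC3 replicate 4) in LN4 minus PC3. Without LN4 replicate 3 and PC3 replicate 4 it was -0.22 in PC3 minus Control and 0.40 in LN4 minus PC3. That fit called 514 probe sets in PC3 minus Control, 200 in LN4 minus Control and 2593 in LN4 minus PC3, against 0 in each comparison with all arrays. With 1 array left out, 0 were called in PC3 minus Control, 0 to 853 in LN4 minus Control and 0 to 715 in LN4 minus PC3. The highest counts came without LN4 replicate 1, which leaves the lung with squamous and muscle transcripts alone in its group, its spread assumed to be that of the others. None of the 7 genes was among those calls. Signal over background limits Pf4, Gp5, Gp9, Treml1 and Clec1b, whose levels never reached the negative controls' 95th percentile.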

Other observations

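Among the other platelet genes, 3 that were highest in LN4 replicate 3 were picked after their values were seen. They are not the only ones, since P2ry1, given above, was also highest there, at 8.17. Rab27b, a GTPase of granule secretion, was at 8.82 there and between 6.56 and 7.01 in the other 5 lungs. Nbeal2, needed for alpha granules, was at 8.42 against 7.46 to 7.65, and Alox12, platelet 12-lipoxygenase, at 7.58 against 6.25 to 6.94. The same lung held the squamous and skeletal muscle transcripts, and Pf4 at 7.12 and Ppbp at 8.96.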
